A study of Mus musculus with 5 samples.

Results

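The cell cycle genes described here are 42 of the 27998 genes in the count table, chosen by name: 16 genes of DNA synthesis (S phase), 25 genes of the G2 phase and mitosis (G2/M), and Stmn1, which was given no phase. All 42 were present. They lay on 15 chromosomes and together held 0.175% of all gene UMIs (unique molecular identifiers, 1 per captured RNA molecule). Their levels were read in 5 cell classes, set by marker genes, and in the 9 hashtag populations of the pool.

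RNA of single live CD45+ immune cells, sorted by flow cytometry, was counted with the 10x Genomics 5′ kit. The cells came from 3 mice, each sampled at 3 sites: tumour, tumour-draining lymph node (dLN) and non-draining lymph node (non-dLN). Mouse 1 had received nivolumab_mIgG1_D265A, an antibody against human PD-1 on a mouse IgG1 backbone that carries the D265A change of the Fc region. Mouse 2 had received nivolumab_mIgG1 and mouse 3 the isotype control antibody MOPC21. The age, strain and tumour line of the mice are not given in the sources used here. Each antibody was given to 1 mouse, so no antibody has a replicate. The 9 samples carried hashtag antibodies and were run as 1 pool. No source used here says which hashtag marked which mouse and site, so cells were grouped by hashtag alone and numbered as populations 1 to 9. No antibody or site was compared, no test was run, and all intervals are 95% and cover counting error only.

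A cell that divides first copies its DNA in S phase and then separates the copies in mitosis. The MCM helicase is loaded onto origins with the help of Cdc6, started with Cdc45 and the GINS complex, and followed by the sliding clamp Pcna, while ribonucleotide reductase, thymidylate synthase and thymidine kinase supply nucleotides. In G2 and mitosis cyclins A and B activate Cdk1, the Aurora and Polo kinases build the spindle, and the anaphase-promoting complex, with Cdc20 and Ube2c, ends mitosis. In the immune system, T cells divide after antigen contact and germinal centre B cells divide during affinity maturation, whereas naive lymphocytes rest outside the cycle. Genes of the S list are known targets of E2F factors, and many G2/M genes carry CHR and CCAAT elements, which the DREAM and B-Myb complexes and NF-Y bind.

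The promoters of the members showed these letters in different shares. RefSeq promoters (GRCm38.p6, 250 bases before to 50 after the start) were found for 13 of 16 S and 22 of 25 G2/M genes. They were matched by gene identifier, or by symbol where that gave no match. A gene with several starts was read at the first one listed. An E2F word (TTTCCCGC, TTTCGCGC, TTTGCCGC or TTTGGCGC, on either strand) lay in 5 of 13 S promoters (38.5%) and in 1 of 22 G2/M promoters (4.55%), that of Cdk1, against 2.26% of all 32851 promoters. A CHR word (TTTGAA or TTTAAA, either strand) lay in 5 of 13 S promoters (38.5%) and in 19 of 22 G2/M promoters (86.4%), against 27.6% of all. CCAAT lay in 9 of 13 S and 19 of 22 G2/M promoters, against 37.4% of all. A CHR word together with CCAAT was present in 17 of 22 G2/M promoters (77.3%) and 4 of 13 S promoters (30.8%), against 10.7% of all. These shares describe letters in a window and were not matched on base composition.

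Stretches of 180 bases that end just before the RefSeq start are shown, 5′ to 3′ on the gene's strand, for 3 S genes with an E2F word. Capitals mark E2F words and CCAAT, including their reverse complements. In Mcm5 and Mcm6 an E2F word and the reverse complement of another overlap in 1 run of capitals. The regions are Mcm5 chr8:75109329-75109508 (plus strand), Mcm6 chr1:128359706-128359885 (minus strand), Cdc6 chr11:98907971-98908150 (plus strand), in GRCm38.p6.
Mcm5: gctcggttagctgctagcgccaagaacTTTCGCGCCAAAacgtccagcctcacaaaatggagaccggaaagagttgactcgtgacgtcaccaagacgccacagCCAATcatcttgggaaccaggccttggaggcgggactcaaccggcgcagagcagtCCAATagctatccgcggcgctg
Mcm6: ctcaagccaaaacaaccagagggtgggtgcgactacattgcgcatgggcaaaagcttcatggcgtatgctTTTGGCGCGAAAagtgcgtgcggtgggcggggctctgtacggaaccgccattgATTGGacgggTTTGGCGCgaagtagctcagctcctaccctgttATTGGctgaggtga
Cdc6: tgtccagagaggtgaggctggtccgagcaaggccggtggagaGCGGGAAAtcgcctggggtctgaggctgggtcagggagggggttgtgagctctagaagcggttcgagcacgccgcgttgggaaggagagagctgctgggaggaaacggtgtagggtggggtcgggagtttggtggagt
The same stretch is shown for 5 G2/M genes with a CHR word and CCAAT. Capitals mark CHR, CCAAT and, in Cdk1, also an E2F word. In all 5 stretches a CHR word stood within 30 bases of the start. These 5 were picked as examples, and such a place was no rule for the list. The CHR words of Mki67 lay at -116 and -98 from the start and that of Ccnb1 at -42, and both genes also carried CCAAT. The regions are Cdk1 chr10:69352913-69353092 (minus strand), Cdc20 chr4:118437344-118437523 (minus strand), Plk1 chr7:122159255-122159434 (plus strand), Ube2c chr2:164769749-164769928 (plus strand), Hmgb2 chr8:57511663-57511842 (plus strand), in GRCm38.p6.
Cdk1: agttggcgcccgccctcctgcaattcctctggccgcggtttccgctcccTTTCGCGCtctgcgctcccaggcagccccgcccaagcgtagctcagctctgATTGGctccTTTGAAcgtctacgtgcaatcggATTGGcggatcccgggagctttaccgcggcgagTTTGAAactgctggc
Cdc20: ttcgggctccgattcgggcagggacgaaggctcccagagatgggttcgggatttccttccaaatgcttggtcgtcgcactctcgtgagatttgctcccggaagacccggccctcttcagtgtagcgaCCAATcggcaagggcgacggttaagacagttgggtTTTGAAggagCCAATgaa
Plk1: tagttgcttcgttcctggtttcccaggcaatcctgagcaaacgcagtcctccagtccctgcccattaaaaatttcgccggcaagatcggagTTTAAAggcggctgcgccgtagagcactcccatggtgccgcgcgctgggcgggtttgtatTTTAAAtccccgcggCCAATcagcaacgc
Ube2c: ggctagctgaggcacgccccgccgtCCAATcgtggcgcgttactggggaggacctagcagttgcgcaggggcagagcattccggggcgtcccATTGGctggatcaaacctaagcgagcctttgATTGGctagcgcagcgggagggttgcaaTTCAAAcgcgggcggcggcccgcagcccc
Hmgb2: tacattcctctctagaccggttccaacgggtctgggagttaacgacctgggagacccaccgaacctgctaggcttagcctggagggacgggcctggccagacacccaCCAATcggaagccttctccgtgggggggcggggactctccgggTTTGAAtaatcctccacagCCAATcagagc

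The pool held 21624 barcodes, of which 21531 passed the filters and 21094 were used, 2051 to 2550 per population. Populations differed in depth: median UMIs per cell ran from 3374 to 10662, highest in population 7, and summed UMIs from 9082690 to 31322375. The gates found 3748 CD8 T cells, 337 Foxp3-positive T cells, 504 natural killer (NK) cells, 2682 macrophages and 200 germinal centre B cells, with median UMIs per cell of 5092, 4362, 5001.5, 15358 and 8200.5. In references that are known to rest or to divide little, the gates found 1280 naive CD4 T cells, 426 monocytes and 4838 B cells without germinal centre genes. The Foxp3-positive class carried markers that its gate did not use: Il2ra, Ikzf2 and Ctla4, known markers of regulatory T cells, stood at 519, 1011 and 1462 CPM, the gene's UMIs per 1000000 UMIs of the class, in Foxp3-positive T cells, against 15.1, 34.7 and 166 CPM in naive CD4 T cells. C1qa stood at 5184 CPM in macrophages and at 25.2 CPM in CD8 T cells, whose gate allowed at most 2 C1q UMIs per cell. The part of free RNA in such levels was not tested. Naive CD4 T cells are given below as a resting reference, whose levels may hold both free RNA and the cells' own RNA. Of the gated cells, 261 CD8 T cells, 174 Foxp3-positive T cells, 52 NK cells, 189 macrophages and 69 germinal centre B cells lay close to the lower limit of their gate.

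Read at equal depth, germinal centre B cells had by far the largest share of cells that expressed cell cycle genes, over all populations together. A cell was called cell cycle-positive where at least 3 different S genes or at least 3 different G2/M genes were detected after its UMIs had been thinned to 1500, so that deep and shallow cells were read alike. Of germinal centre B cells 49.2% were positive (95 of 193, interval 41.97 to 56.5%), of Foxp3-positive T cells 17.3% (57 of 330, 13.4 to 21.8%) and of macrophages 14.7% (391 of 2660, 13.4 to 16.1%). CD8 T cells reached 6.46% (239 of 3697, 5.69 to 7.31%) and NK cells 4.67% (23 of 493, 2.98 to 6.92%). In naive CD4 T cells 2.05% were positive (26 of 1268, 1.34 to 2.99%), in monocytes 1.18% and in the other B cells 2.69%. The pooled shares mix populations that differ: nearly all macrophages lay in populations 1, 4 and 7, where CD8 T cells had 12.2, 11.3 and 23.6% positive cells and macrophages 8.85, 11.8 and 18.5%. The intervals of Foxp3-positive T cells and macrophages overlapped, as did those of CD8 T and NK cells, and the lower end of the NK interval met the upper end of that of naive CD4 T cells. The share is a detection rate and not a fraction of dividing cells. Without thinning it was 74% in germinal centre B cells, 62.9% in macrophages and 42.1% in NK cells. It was then 40.7% in Foxp3-positive T cells, 35.8% in CD8 T cells and 22.7% in naive CD4 T cells. The lead of germinal centre B cells was thus smaller, and macrophages and NK cells stood above Foxp3-positive T cells.

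**Figure D1:**
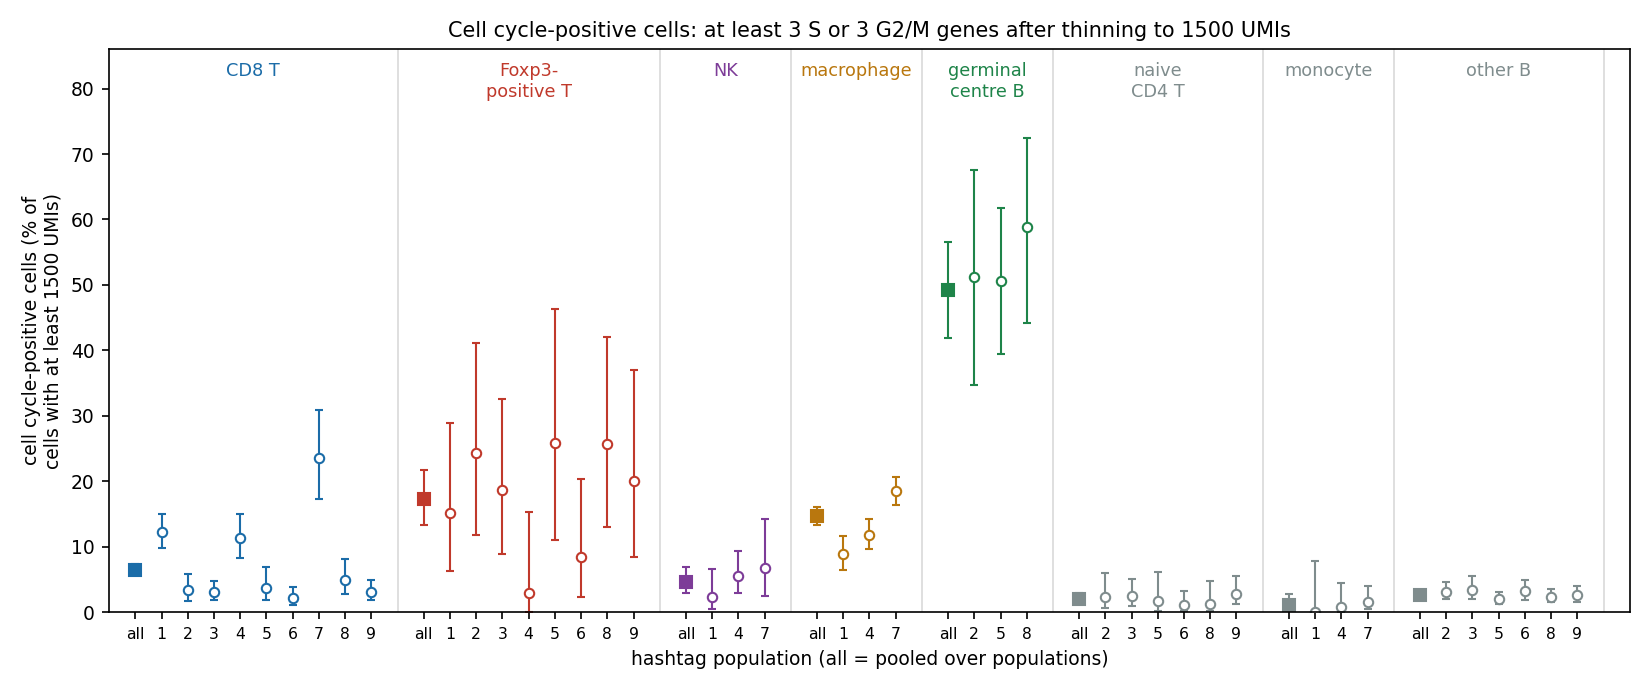
Share of cell cycle-positive cells (percent of cells with at least 1500 UMIs, vertical axis) in 5 gated classes and 3 reference classes, for all populations together (filled squares) and each hashtag population with at least 20 such cells (open circles); bars are exact Clopper-Pearson intervals. Germinal centre B cells lie between 49.2% and 58.8%, and CD8 T cells of population 7 stand apart from the other CD8 T cells at 23.6%.

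CD8 T cells differed among the populations beyond counting error. Populations 1, 4 and 7 held 12.2% (9.77 to 15.04%), 11.3% (8.23 to 15.01%) and 23.6% (17.3 to 30.9%) positive CD8 T cells. In the other 6 populations the share ran from 2.21 to 5%, and all 6 intervals lay below those of populations 1, 4 and 7. The closest was population 8, whose interval of 2.83 to 8.11% ended just under that of population 4. Median UMIs of CD8 T cells were 6428, 6228 and 7619 in populations 1, 4 and 7 and 4660 to 4944 elsewhere, and the thinned call reads 1500 UMIs of each cell.

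Macrophages were numerous in populations 1, 4 and 7, where 8.85% (6.48 to 11.7%), 11.8% (9.73 to 14.2%) and 18.5% (16.4 to 20.7%) were positive. Population 7 thus held the highest share among both CD8 T cells and macrophages, and its interval overlapped neither of the other 2 in either class. NK cells of populations 1, 4 and 7 gave 2.29, 5.56 and 6.82%, with intervals that overlapped throughout. Germinal centre B cells were found in numbers in populations 2, 5 and 8, at 51.3, 50.6 and 58.8%, likewise with overlapping intervals. Foxp3-positive T cells in populations 1, 2, 3, 4, 5, 6, 8 and 9 gave 15.2, 24.3, 18.8, 2.94, 25.9, 8.51, 25.6 and 20%, each from 27 to 48 cells. The lowest of these, 1 of 34 cells in population 4, had an interval of 0.0744 to 15.3%, which overlapped all the others. Naive CD4 T cells stayed between 1.15 and 2.86% in the 6 populations that held enough of them.

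Positive cells held more UMIs than the other cells of their class in all 5 classes. Their median was 15591 against 4735.5 UMIs in germinal centre B cells, 12256 against 4167 in Foxp3-positive T cells and 13327 against 5010.5 in NK cells. In CD8 T cells it was 8333 against 5032 and in macrophages 20855 against 14703. A class level summed over cells, as used below, therefore gives positive cells more weight than a mean over cells would.

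The levels of the 42 members, like the shares, were highest in germinal centre B cells. Germinal centre B cells had the highest level of 15 of 16 S genes, 24 of 25 G2/M genes and Stmn1, which encodes a microtubule-destabilising protein. Foxp3-positive T cells had the highest level of the other 2, Tyms (101 CPM, thymidylate synthase) and Cenpa (233 CPM, the centromeric histone), where germinal centre B cells stood at 97.8 and 211 CPM. NK cells were lowest of the 5 classes for 21 of 25 G2/M genes, 8 of 16 S genes and Stmn1, and macrophages were lowest for 4 G2/M and 6 S genes.

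**Figure D2:**
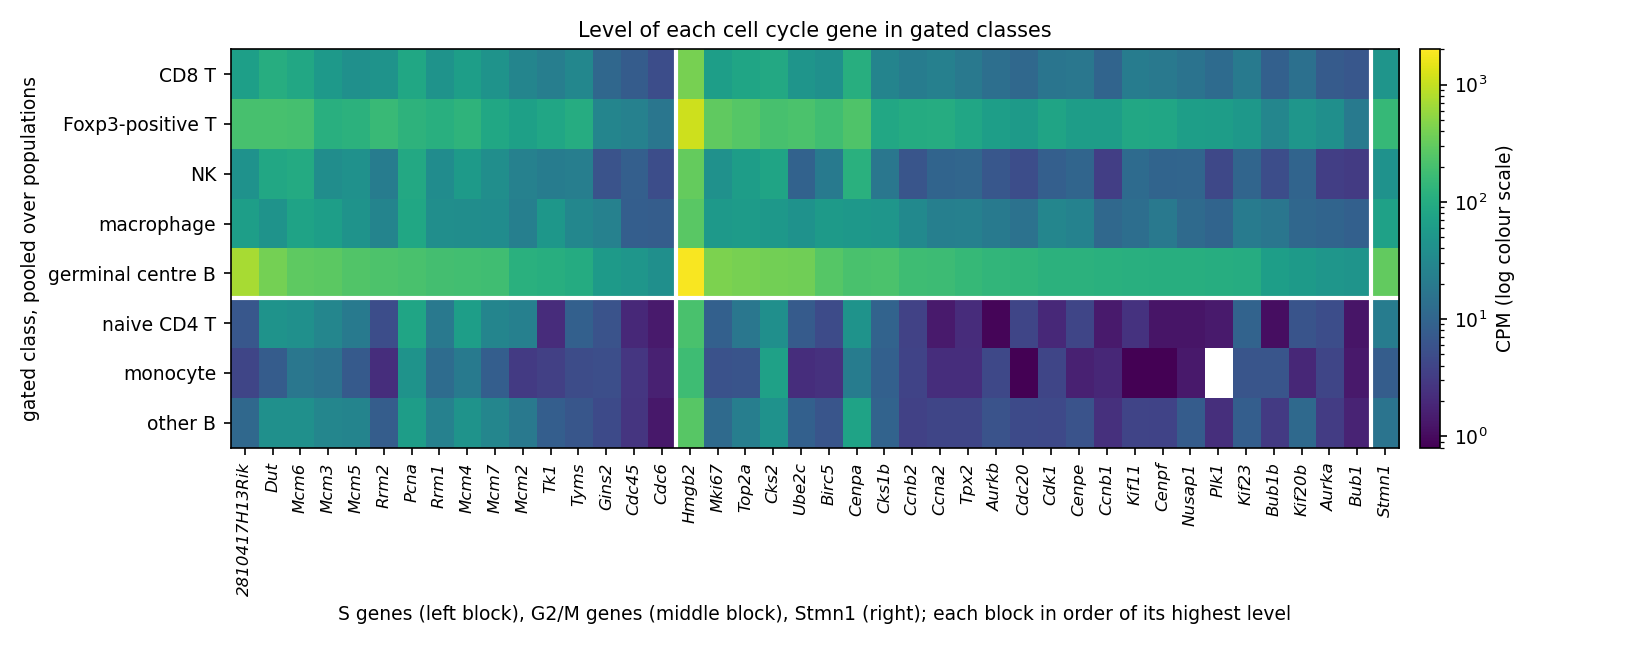
Level of each of the 42 genes (CPM, log colour scale) in the 5 gated classes and in naive CD4 T cells, monocytes and the other B cells, pooled over populations; white marks a count of 0. The germinal centre B row is the brightest in all columns but those of Tyms and Cenpa, and Hmgb2, Pcna and Cenpa stay visible in the resting classes.

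Among the genes of DNA synthesis, 2810417H13Rik, also named Pclaf, a partner of the replication clamp, stood furthest above its level in naive CD4 T cells in germinal centre B cells. It stood at 722 CPM in germinal centre B cells, 205 in Foxp3-positive T cells, 65.4 in CD8 T cells, 64.4 in macrophages and 42.8 in NK cells, against 6.76 CPM in naive CD4 T cells. The reductase subunit Rrm2 showed 223, 162, 43.96, 27.4 and 21.1 CPM in that order of classes and 5.16 CPM in naive CD4 T cells. Its partner Rrm1 was less steep, at 194 CPM in germinal centre B cells and 18.9 CPM in naive CD4 T cells. Over all populations together Tk1, thymidine kinase, stood at 49.96 CPM in macrophages, 22.6 CPM in CD8 T cells and 2.14 CPM in naive CD4 T cells. Within populations 1, 4 and 7 the ratio of macrophages to CD8 T cells for Tk1 was 1.05, 0.987 and 0.841, so macrophages were not higher in each. Dut, which removes dUTP from the nucleotide pool, had 44.5 CPM in macrophages, as in naive CD4 T cells (44.3 CPM), and 104 CPM in CD8 T cells.

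The helicase subunits were present in resting cells as well. Mcm2, Mcm3, Mcm4, Mcm5, Mcm6 and Mcm7 stood at 19.4 to 64.2 CPM in naive CD4 T cells and at 114 to 285 CPM in germinal centre B cells. Pcna, the sliding clamp, was the flattest S gene: 211 CPM in germinal centre B cells, 127 in Foxp3-positive T cells, 91.0 in NK cells, 84.5 in CD8 T cells, 83.5 in macrophages and 79.7 CPM in naive CD4 T cells. In a cell thinned to 1500 UMIs a Pcna UMI was found in 10.1% of CD8 T cells and in 10.5% of naive CD4 T cells, so Pcna on its own did not set the 2 apart. The loading and initiation genes Cdc6, Cdc45 and Gins2 were lower, at 39.9, 48.7 and 57.1 CPM in germinal centre B cells and at most 5.87 CPM in naive CD4 T cells.

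Among the G2/M genes, Mki67, the proliferation antigen that coats mitotic chromosomes, stood at 430 CPM (404 to 457) in germinal centre B cells and 299 CPM (276 to 322) in Foxp3-positive T cells. Mki67 was at 63.7, 55.7 and 42.2 CPM in CD8 T cells, macrophages and NK cells, and at 8.72 CPM (6.45 to 11.5) in naive CD4 T cells. Top2a, the topoisomerase that untangles sister chromatids, showed 406, 251, 78.9, 59.1 and 62.0 CPM in germinal centre B, Foxp3-positive T, CD8 T, macrophage and NK cells, and 17.8 CPM in naive CD4 T cells. The intervals of macrophages and NK cells overlapped for Top2a, 56.7 to 61.4 against 53.7 to 71.3 CPM.

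Across the populations of CD8 T cells Mki67 was lowest at 7.91 CPM in population 6, had its median of 80.9 CPM in population 4 and was highest at 178 CPM in population 7. Populations 2, 3, 6 and 9 stayed at 21.1 CPM or less, whereas populations 5 and 8 reached 107 and 113 CPM with positive shares of 3.79 and 5%. In macrophages Mki67 was 39.8, 44.7 and 66.4 CPM in populations 1, 4 and 7, and population 7 was highest. NK cells gave the opposite order, 59.2, 34.8 and 9.54 CPM in populations 1, 4 and 7, the last from 5 UMIs. Foxp3-positive T cells ranged from 143 CPM in population 6 to 679 CPM in population 8. Germinal centre B cells were even, with Mki67 at 434, 438 and 457 CPM in populations 2, 5 and 8.

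Stmn1 followed Mki67 in part. Over the CD8 T cells Stmn1 ran from 11.4 CPM in population 3 through a median of 48.0 CPM in population 5 to 150 CPM in population 7, and in macrophages it was 41.6, 45.0 and 92.3 CPM in populations 1, 4 and 7. Stmn1 in germinal centre B cells was 291, 338 and 309 CPM in populations 2, 5 and 8. Hmgb2, a chromatin protein with an HMG box, was the most abundant member and also present in resting cells: 1870 CPM in germinal centre B cells, 1096 in Foxp3-positive T cells, 400 in CD8 T cells, 319 in NK cells, 274 in macrophages and 214 CPM in naive CD4 T cells. Hmgb2 in CD8 T cells ran from 205 CPM in population 6 to 678 CPM in population 7.

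The mitotic regulators separated the classes more sharply. Ube2c, the ubiquitin-conjugating enzyme of the anaphase-promoting complex, stood at 365 CPM in germinal centre B cells, 220 in Foxp3-positive T cells, 46.9 in CD8 T cells and 43.2 in macrophages, but at 9.44 CPM in NK cells, near the 7.65 CPM of naive CD4 T cells. The Cdk1 activator Ccnb1 was at 113, 63.1, 9.97, 11.1 and 3.46 CPM in germinal centre B, Foxp3-positive T, CD8 T, macrophage and NK cells, and at 1.42 CPM in naive CD4 T cells. The other mitotic kinases and checkpoint genes Plk1, Aurka, Aurkb, Bub1 and Bub1b had 46.2 to 137 CPM in germinal centre B cells and 3.15 to 6.61 CPM in NK cells. The spindle and motor genes Kif11, Kif20b, Kif23, Nusap1 and Tpx2 stood at 56.2 to 152 CPM in germinal centre B cells, 48.5 to 87.3 in Foxp3-positive T cells, 14.3 to 21.3 in CD8 T cells, 10.9 to 24.3 in macrophages and 10.1 to 12.3 CPM in NK cells. Cenpe and Cenpf, which act at the kinetochore, had 120.5 and 109 CPM in germinal centre B cells and 4.09 and 1.25 CPM in naive CD4 T cells. Cks1b and Cks2 are small subunits of Cdk complexes. Cks2 had 51.8 CPM in macrophages and 71.3 CPM in monocytes, so it did not follow the shares in myeloid cells.

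The balance of the 2 phases also differed among classes. Summed over their lists, S genes stood at 738 CPM and G2/M genes at 1116 CPM in CD8 T cells, a G2/M to S ratio of UMIs of 1.51 (1.48 to 1.54). The ratio was 2.06 (1.98 to 2.14) in Foxp3-positive T cells, 1.78 (1.73 to 1.83) in germinal centre B cells, 1.43 (1.41 to 1.46) in macrophages and 1.25 (1.17 to 1.32) in NK cells, and 1.04 in naive CD4 T cells. Hmgb2 alone made up 29.0 to 40.2% of the G2/M UMIs of these 5 classes. With 5 genes, Hmgb2, Cks1b, Cks2, Dut and Pcna, left out, the ratios were 1.57, 1.28, 1.07 and 0.829 in the same order, 1.09 in CD8 T cells and 0.519 in naive CD4 T cells, so NK cells then had more S than G2/M UMIs. CD8 T cells and macrophages had no fixed order: the ratio was 1.93 against 1.54 in population 1, 1.90 against 2.14 in population 4 and 1.21 in both in population 7, and the pooled intervals without the 5 genes overlapped. Other members kept in the sums, such as Mcm4 and Cenpa, were also well detected in naive CD4 T cells. These intervals treat UMIs as independent, and UMIs of 1 cell are not.

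**Figure D3:**
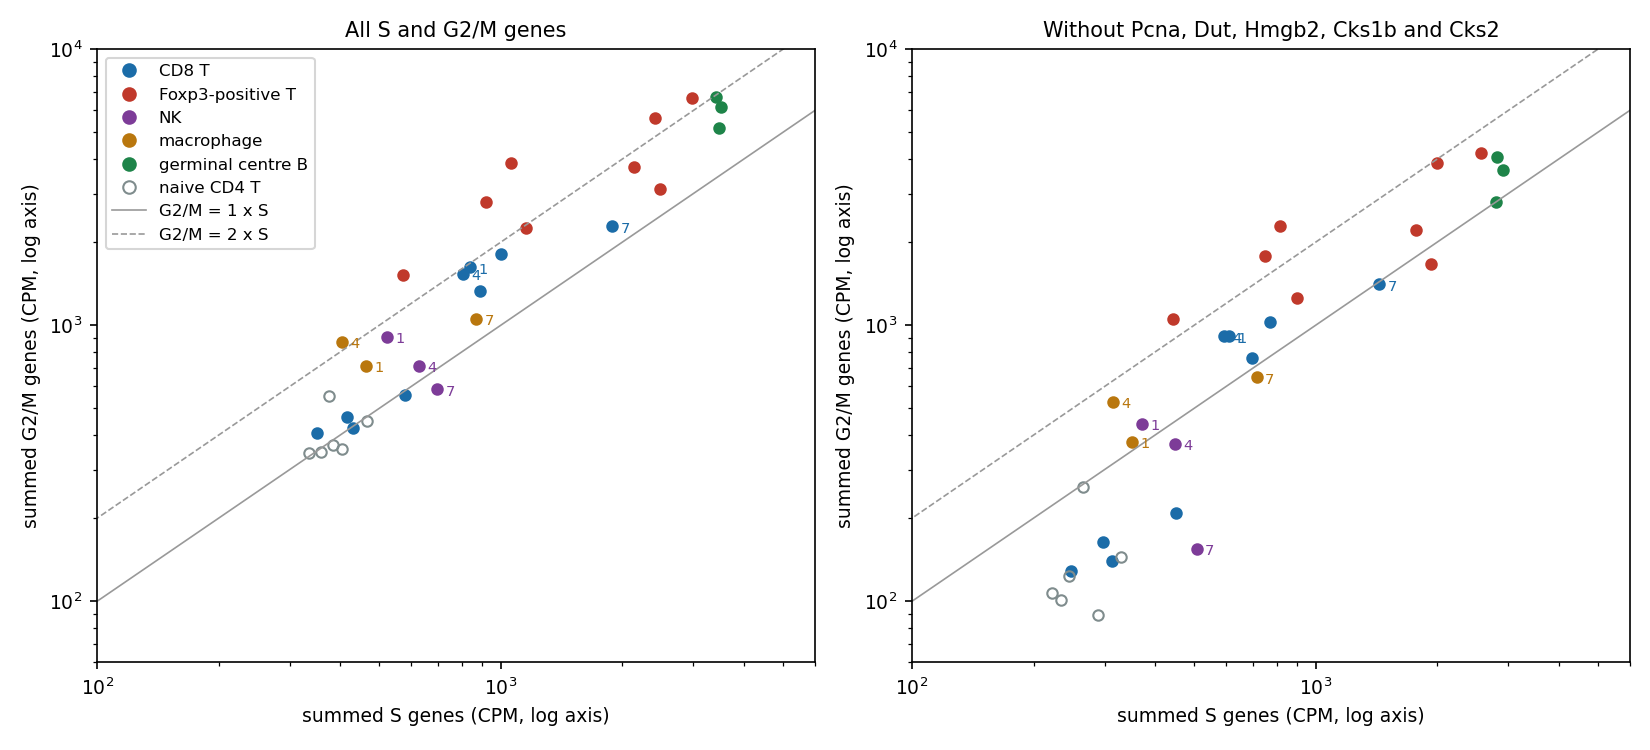
Summed G2/M genes against summed S genes (CPM, both axes log) for each class and hashtag population with at least 20 cells, with all genes (left) and without Hmgb2, Cks1b, Cks2, Dut and Pcna (right); numbers mark populations 1, 4 and 7 of CD8 T cells, NK cells and macrophages, and lines mark G2/M equal to S and 2 times S. In each of these 3 classes population 7 lies further to the right than populations 1 and 4, and nearer to or below the line of equality.

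The G2/M to S ratio of population 7 was lower than those of populations 1 and 4 in all 3 classes in which they could be set side by side. In CD8 T cells the G2/M to S ratio was 1.93 (1.86 to 2.01), 1.90 (1.80 to 2.00) and 1.21 (1.15 to 1.27) in populations 1, 4 and 7. In macrophages it was 1.54 (1.46 to 1.61), 2.14 (2.08 to 2.21) and 1.21 (1.19 to 1.24), and in NK cells 1.74 (1.53 to 1.97), 1.14 (1.05 to 1.24) and 0.841 (0.720 to 0.982). The interval of population 7 lay below the other 2 in each class. CD8 T cells of populations 2, 3, 6 and 9 had ratios below that of population 7, at 0.960, 1.12, 1.16 and 0.984. A low ratio was thus not particular to population 7, and naive CD4 T cells stood at 1.04. Without the 5 genes named above, the ratio of population 7 was still the lowest of populations 1, 4 and 7. It was 0.979 in CD8 T cells, 0.908 in macrophages and 0.305 in NK cells. In CD8 T cells of populations 2, 3, 6 and 9 the ratio without these genes was 0.449 to 0.553. The S level of macrophages was 868 CPM in population 7 against 464 and 405 CPM in populations 1 and 4, and that of CD8 T cells 1890 against 840 and 807 CPM. In NK cells the S level was 696 CPM (627 to 772) in population 7, which overlapped the 626 CPM (589 to 665) of population 4. Their G2/M level without the 5 genes was 155 CPM in population 7, from 81 UMIs, against 440 and 372 CPM in populations 1 and 4. Naive CD4 T cells had 133 CPM, so in NK cells the low ratio went with a low G2/M level. Population 7 was also the deepest, with a median of 10662 UMIs per cell over all its cells, although its NK cells, at 4049.5 UMIs, were shallower than those of populations 1 and 4 (5004 and 5951), and the part of depth in this ratio was not tested.

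The cells themselves showed this difference from populations 1 and 4 in part. Among positive CD8 T cells, 7 of 38 in population 7 carried G2/M genes only (18.4%, 7.74 to 34.3%), against 37 of 77 in population 1 (48.1%, 36.5 to 59.7%) and 18 of 41 in population 4 (43.9%, 28.5 to 60.3%). The interval of population 7 did not overlap that of population 1 and overlapped that of population 4. Among positive macrophages the G2/M-only share was 40.8% (34.6 to 47.3%) in population 7, 48.8% (33.3 to 64.5%) in population 1 and 59% (48.7 to 68.7%) in population 4, and the intervals of populations 7 and 4 did not overlap. NK cells had too few positive cells per population for a share, with 6 in population 7, of which 5 carried S genes only.

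**Figure D4:**
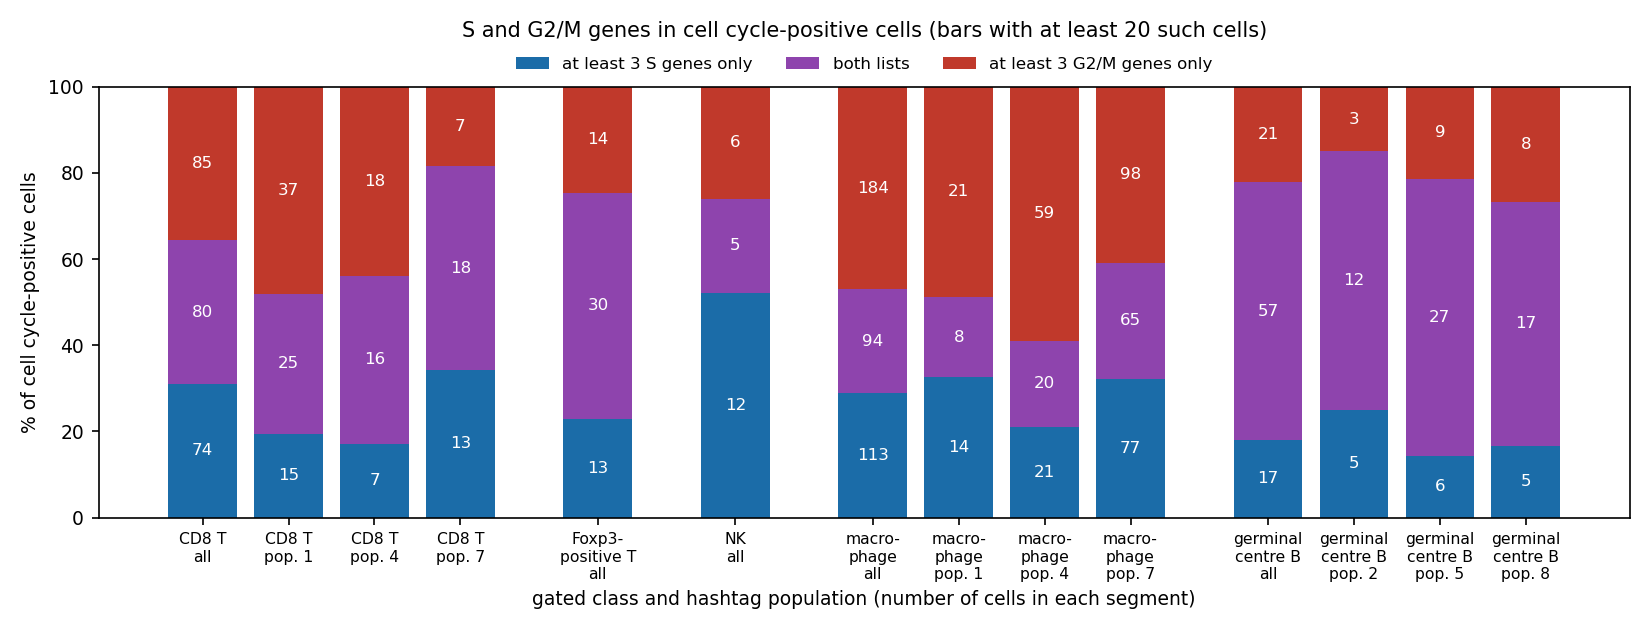
Cell cycle-positive cells by the list they passed, as percent of positive cells, for each class and each population with at least 20 of them; numbers are cells. Cells that passed both lists make up 60% in germinal centre B cells and 24.04% in macrophages, and G2/M-only cells 18.4% in CD8 T cells of population 7.

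Cells that passed both lists were more frequent among positive germinal centre B cells than among positive macrophages, with intervals that did not overlap. They made up 57 of 95 positive germinal centre B cells (60%, 49.4 to 69.9%), 30 of 57 Foxp3-positive T cells (52.6%, 39.0 to 66.0%), 80 of 239 CD8 T cells (33.5%), 94 of 391 macrophages (24.04%, 19.9 to 28.6%) and 5 of 23 NK cells. In naive CD4 T cells 16 of 26 positive cells passed by S genes only, 9 by G2/M genes only and 1 by both. A cell passing both lists was thus found in 1 of 1268 naive CD4 T cells but in 80 of 3697 CD8 T cells.

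Germinal centre B cells stood above the other B cells for every member. In populations 2, 5 and 8, which held both classes, 42 of 42 members were at least 2-fold higher with an interval above 1 and 0 were lower, and 42 of 42 had a ratio above 1 in each of the 3 populations. Over all 9388 genes with at least 50 UMIs in the 2 classes together, 13.4% were higher by the same limits, 14% were lower and 33.6% had a ratio above 1 in each population. The median log2 ratio was 4.18 over the members and -0.04 over all genes. The S sum stood at 3471 against 366 CPM, 9.48-fold (9.11 to 9.87), and the G2/M sum at 6184 against 547 CPM, 11.3-fold (10.9 to 11.7).

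The members with the largest ratios belonged to both phases. 2810417H13Rik stood at 653, 761 and 773 CPM in germinal centre B cells of populations 2, 5 and 8 and at 7.56, 13.3 and 16.9 CPM in the other B cells, 57.2-fold (47.6 to 69.3). Ccnb2, a B-type cyclin, was 44.2-fold higher (31.8 to 63.1), Ccnb1 43.8-fold (29.1 to 69.0) and Plk1, the Polo kinase, 43.4-fold (28.3 to 69.8). Ccna2, cyclin A, stood at 150, 172 and 190 CPM against 2.39, 3.69 and 7.22 CPM, 37.9-fold (27.7 to 53.2). These members were picked for their large ratios. Like all 42 members they had a ratio above 1 in each of the 3 populations, as did 33.6% of all genes. The smallest ratios were those of Cenpa (2.74-fold) and Pcna (3.47-fold), both well detected in the other B cells. The gate asks for at least 2 germinal centre genes in a cell, and these cells were deeper, with a median of 8200.5 against 2943.5 UMIs. The other B cells held no germinal centre gene. Over the pool 1357 cells with at least 3 B lineage UMIs held exactly 1 such gene and entered neither class. Of the 3 plasma cell markers Jchain stood at 752 against 74.4 CPM, while Sdc1 and Prdm1 were at 1.68 and 2.94 CPM in germinal centre B cells and at 5.52 and 4.59 CPM in the other B cells, and the part of such cells in the ratios was not tested.

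**Figure D5:**
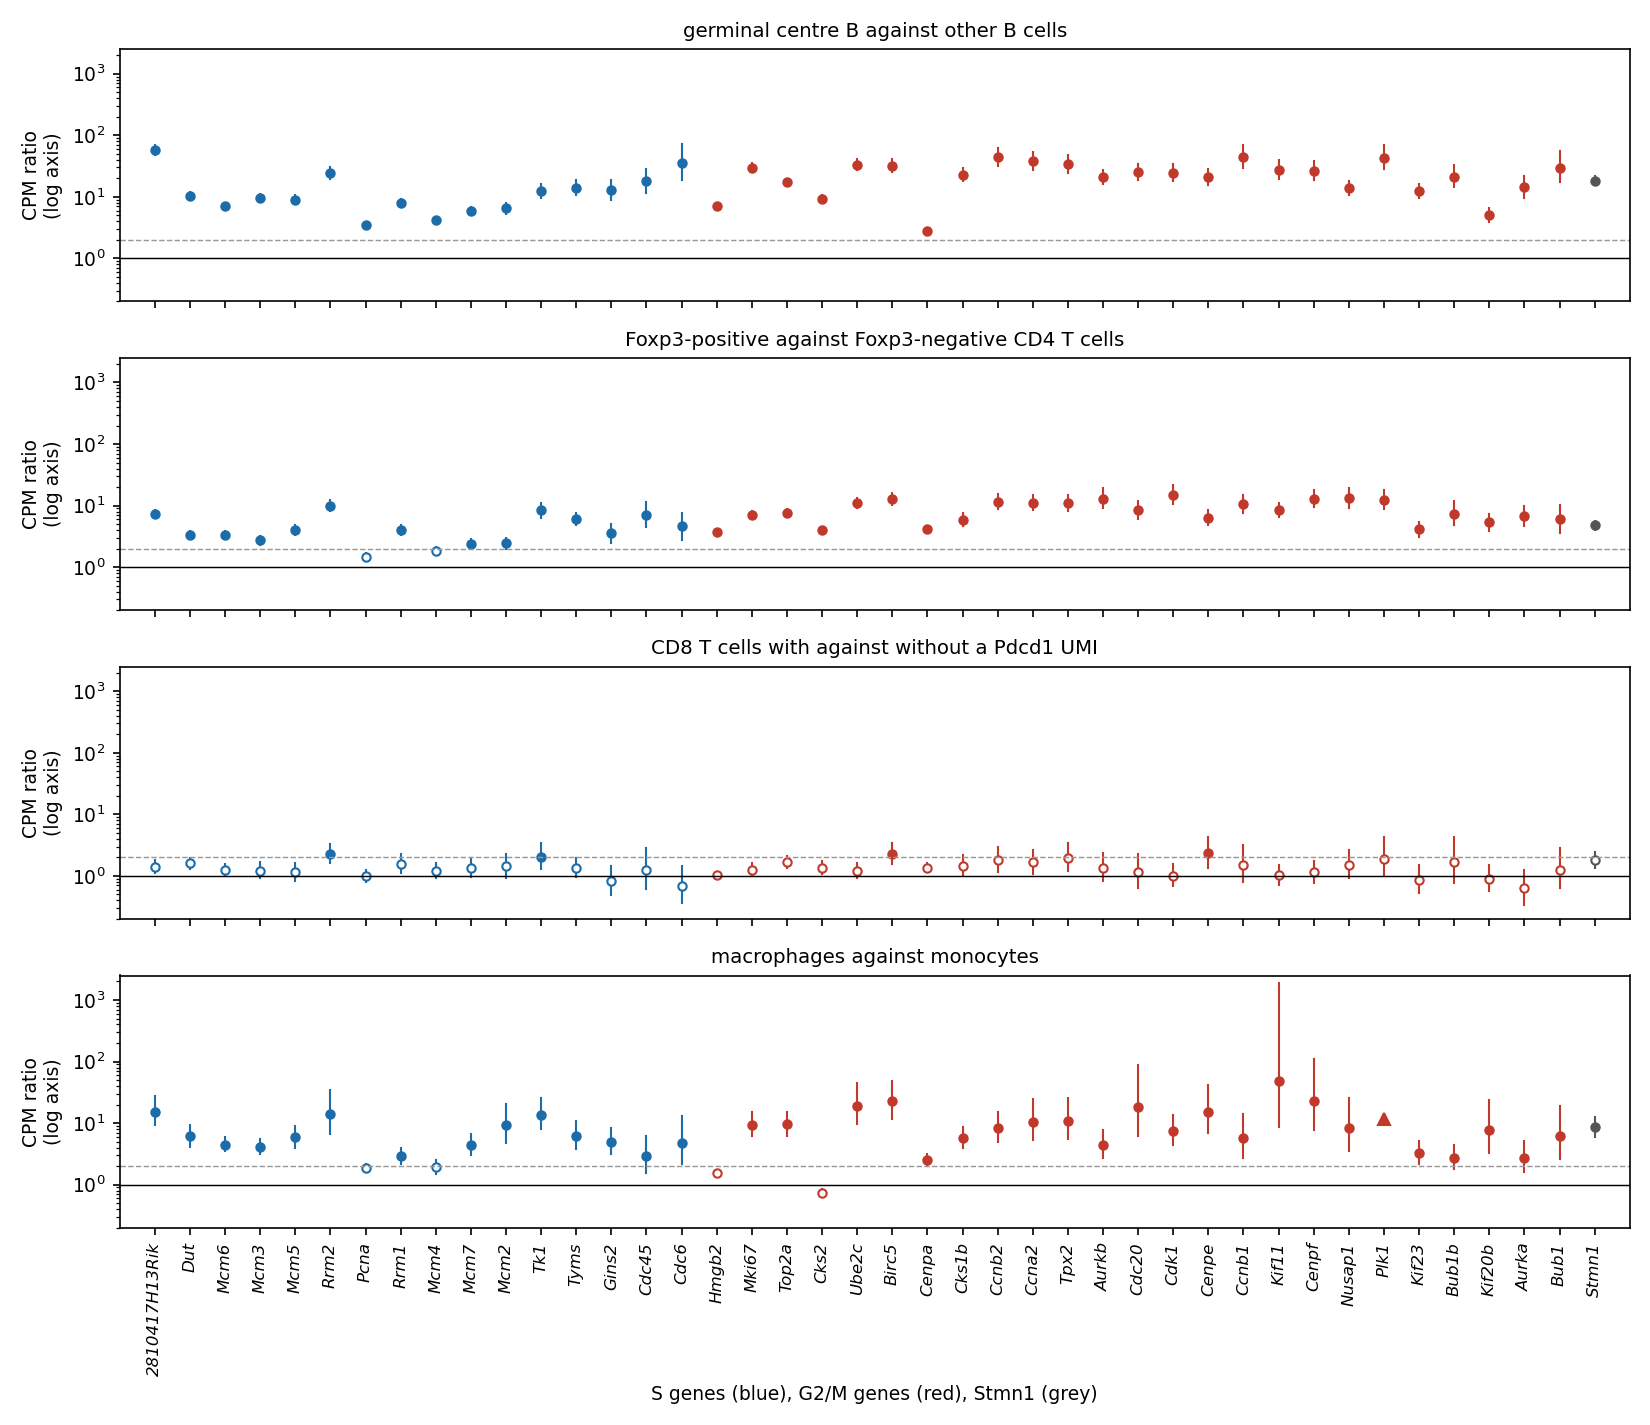
Ratio of CPM (log axis) for each of the 42 genes in 4 comparisons within the populations that held both classes; points are ratios, lines are conditional binomial intervals, filled points passed the 2-fold limit with an interval above 1, and the triangle for Plk1 is the ratio with 3 counts in place of 0. All 42 points are filled in the first panel and 4 of 42 in the panel for Pdcd1.

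Pooled over 8 populations, Foxp3-positive T cells also carried more of nearly all members than the Foxp3-negative CD4 T cells of the same populations. The Foxp3-negative class needed a Cd4 UMI, which the Foxp3-positive gate did not, and allowed no Cd8a, Cd8b1 or Foxp3 UMI. Over the pool 1280 of its 1719 cells were the naive CD4 T cells used as a resting reference. Foxp3-positive cells were not set against activated Foxp3-negative cells alone. In 8 populations together, 40 of 42 members were at least 2-fold higher and 0 lower, where 10.6% of 9255 genes were higher and 3.78% lower. The exceptions were Mcm4 (1.84-fold) and Pcna (1.47-fold). All 25 G2/M genes passed, with a sum of 3812 against 673 CPM, 5.66-fold (5.47 to 5.86), and 14 of 16 S genes, with a sum of 1827 against 539 CPM, 3.39-fold (3.24 to 3.54). With a count of 0 taken as 3, 17 of 42 members had a ratio above 1 in each of the 8 populations, as did 6.66% of all genes. Within single populations the ratio of the S sums ran from 1.40 (0.947 to 2.10) in population 4 to 5.61 in population 3. That of the G2/M sums ran from 2.49 in population 4 to 9.56 in population 9. Populations 1 and 4 had 23 Foxp3-negative cells each. Only 3 and 1 members had enough UMIs there, of which 2 and 0 were past the limit.

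The leading members were mitotic. Cdk1, the kinase that drives entry into mitosis, stood at 89.97, 90.96, 78.1, 29.9, 84.8, 51.4, 140 and 41.9 CPM in Foxp3-positive T cells of populations 1, 2, 3, 4, 5, 6, 8 and 9. In the Foxp3-negative cells Cdk1 was between 0 and 14.6 CPM, and the pooled ratio was 14.9 (10.5 to 21.4). In population 4 the Foxp3-negative class, 23 cells, had 0 UMIs, and with 3 counts allowed its ratio was 0.898. The ratio of Cdk1 was thus above 1 in 7 of 8 populations. These single ratios rest on few UMIs, as the Foxp3-negative cells held 42 Cdk1 UMIs over the 8 populations. The spindle protein Nusap1 was 13.4-fold higher (9.32 to 19.6), the Aurora kinase Aurkb 12.99-fold (9.04 to 19.1), the kinetochore protein Cenpf 12.8-fold (9.35 to 17.7) and Birc5, the survivin subunit of the Aurora B complex, 12.7-fold (10.3 to 15.8). Birc5 ranged from 65.7 CPM in population 4 to 299 CPM in population 5 in Foxp3-positive cells, and reached 43.8 CPM in Foxp3-negative cells, in population 8. Among Foxp3-positive T cells the G2/M to S ratio was lowest of the 8 in population 3, at 1.26 (1.14 to 1.38), against 3.64 (3.14 to 4.25) in population 2. Each of these 2 populations had 9 positive cells, so the ratios may rest on few cells, and the intervals treat UMIs as independent. Of the 337 cells, 174 entered the class on 1 Foxp3 UMI, and the median depths of the 2 classes were 4362 and 4290 UMIs.

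In CD8 T cells, a UMI of Pdcd1, the gene of the receptor PD-1, went with more cell cycle-positive cells over the whole pool and with a smaller difference within single populations. Over all populations 14.6% of CD8 T cells with a Pdcd1 UMI were positive (149 of 1018) and 3.36% of those without (90 of 2679). Within populations 1, 4 and 7 the shares were 12.7, 11.4 and 25.6% with, and 9.30, 10.96 and 14.3% without a Pdcd1 UMI, with overlapping intervals in each. Of the members 4 of 42 were at least 2-fold higher and 0 lower in these 3 populations together, against 1.45% higher and 2.65% lower among 8821 genes.

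The 4 genes were Cenpe, Rrm2, Birc5 and Tk1. Cenpe, a kinetochore motor, was 2.32-fold higher (1.36 to 4.303), Rrm2 2.29-fold (1.62 to 3.34), Birc5 2.28-fold (1.59 to 3.39) and Tk1 2.05-fold (1.29 to 3.44). Rrm2 stood at 61.5, 70.5 and 155 CPM with and at 24.8, 36.1 and 63.2 CPM without a Pdcd1 UMI in populations 1, 4 and 7, higher in each population. The S sum was 1.36-fold (1.26 to 1.47) and the G2/M sum 1.26-fold (1.19 to 1.33) higher. For G2/M the populations differed: 1.19-fold in population 1, 1.01-fold (0.918 to 1.10) in population 4 and 2.17-fold (1.87 to 2.55) in population 7. Without population 4 the count of members past the limit was 7. A ratio above 1 in each population was found for 20 of 42 members and for 14.9% of all genes. Cells with a Pdcd1 UMI were deeper, with medians of 6833, 6716 and 8674 against 4425, 3939.5 and 4104 UMIs, and the part of depth in the gate was not tested.

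Macrophages carried more cell cycle RNA than the monocytes of the same populations. In populations 1, 4 and 7, 38 of 42 members were at least 2-fold higher and 0 lower, where 12% of 11164 genes were higher and 5.79% lower. The S sum stood at 659 against 159 CPM, 4.14-fold (3.81 to 4.503), and the G2/M sum at 943 against 336 CPM, 2.81-fold (2.65 to 2.98). Without Hmgb2, Cks1b, Cks2, Dut and Pcna the G2/M to S ratio was 1.07 in macrophages and 0.753 in monocytes. A ratio above 1 in each population was found for 36 of 42 members and for 28.5% of all genes.

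Several mitotic genes were almost absent from monocytes. Plk1 had 410 UMIs in macrophages, at 4.297, 11.3 and 10.7 CPM in populations 1, 4 and 7, and 0 UMIs in monocytes, at least 11.8-fold higher with 3 counts allowed over the group. With 3 counts allowed in each population, Plk1 was higher in 2 of the 3, and population 1 could not show a difference. Kif11, a spindle motor, had 562 UMIs in macrophages and 1 in monocytes, 48.5-fold with an interval of 8.67 to 1920. Cenpf was 22.5-fold higher (7.66 to 109), Birc5 22.5-fold (11.8 to 49.2), Ube2c 19.3-fold (9.76 to 44.7) and Cdc20 18.1-fold (6.15 to 87.7), each against 3 to 9 UMIs in monocytes. The 4 members that missed the limit were Mcm4 (1.92-fold), Pcna (1.86-fold), Hmgb2 (1.56-fold) and Cks2, which was lower in macrophages in all 3 populations, at 58.8, 58.8 and 45.6 against 81.8, 75.3 and 66.3 CPM. Median depths were 15358 UMIs in macrophages and 8330.5 in monocytes. The neutrophil genes S100a8, S100a9 and Retnlg stood at 101, 152 and 43.4 CPM in monocytes and at 0 to 0.314 CPM in macrophages, and the part of such cells in the ratios was not tested.

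Set beside each other in populations 1, 4 and 7, CD8 T cells had higher levels of most members than macrophages. In each of the 3 populations 32 of 42 members were higher in CD8 T cells, 0 were higher in macrophages and 10 were mixed, where 45.6% of 11579 genes were higher in CD8 T cells and 31.2% higher in macrophages in each population. Dut was 4.12- to 5.33-fold, Cenpa 3.38- to 6.03-fold and Rrm2 3.80- to 4.298-fold higher in CD8 T cells. Gins2, a subunit of the GINS complex, the checkpoint kinase gene Bub1b, Cks1b and Cdc20 were higher in macrophages in 2 of the 3 populations. CPM is a share of the UMIs of a class, and macrophages held more UMIs per cell, with medians of 11498.5, 15719 and 16743 in these populations against 6428, 6228 and 7619 in CD8 T cells.

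Cell cycle genes outside the 42 were then read in positive against other cells of each class. The cells had been chosen by the members, so these other genes, which did not enter the call, describe what the chosen cells express. Among CD8 T cells 27 of 28 further replication genes and 33 of 35 measured mitosis genes were at least 2-fold higher, and 0 lower, where 8.31% of 10312 genes were higher and 5.54% lower. The replication checkpoint gene Clspn was 66.2-fold (46.2 to 97.8) and the mitotic kinase gene Pbk 195-fold higher (64.4 to 962, against 3 UMIs in the other cells). Positive CD8 T cells came mostly from populations 1, 4 and 7 and the others mostly not, and within these populations the ratio was 33.6 to 41.0 for Clspn and, with a count of 0 taken as 3, 17.3 to 42.3 for Pbk. Histone genes stood out by level: Hist1h1b, a linker histone, had 564 against 9.61 CPM and Hist1h2ae 694 against 12.8 CPM. Of 20 histone, tubulin and chromatin genes 19 were higher.

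Macrophages resembled them in these counts. Of replication genes 27 of 28, of mitosis genes 34 of 36 and of the histone group 19 of 20 were higher, where 5.98% of 11039 genes were higher and 2.63% lower. Clspn was 20.7-fold (16.8 to 25.7), Pbk 125-fold (68.7 to 252), Hmmr, a spindle protein gene, 66.8-fold (44.2 to 106) and Hist1h1b 43.5-fold (37.3 to 50.9) higher. In germinal centre B cells 21 of 25 replication and 32 of 33 mitosis genes were higher (background 11.2% higher and 6.3% lower of 5908 genes), and in Foxp3-positive T cells 23 of 23 and 22 of 24 (10.6% and 9.72% of 6070). NK cells, with 23 positive cells, gave 13 of 14 replication genes but 5 of 6 measured mitosis genes, as 30 of the 36 mitosis genes had too few UMIs (3.63% and 4.37% of 6757). In NK cells 1 mitosis gene, Pttg1, the securin, was lower, 2.01-fold (1.07 to 4.26).

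The regulators were more mixed. Of 20 cyclins, kinases and E2F or B-Myb factors, 16 were higher and 1 lower in positive CD8 T cells, 10 higher and 0 lower in macrophages. For CD8 T cells over all populations the ratios were 165 (54.2 to 818, against 3 UMIs) for E2f8 and 56.9 (25.9 to 148) for E2f7, repressors of the E2F family, 55.5 (31.1 to 108) for Mybl2, which encodes B-Myb, and 22.5 (14.2 to 36.8) for Foxm1. Within populations 1, 4 and 7, with a count of 0 taken as 3, they were smaller for E2f8 (9.95 to 31.2) and E2f7 (8.38 to 28.2) and Mybl2 (13.1 to 32.7). In macrophages E2f7 was 28.6-fold, Foxm1 26.0-fold and Mybl2 17.1-fold higher. The G1 cyclin Ccnd1 was lower in positive CD8 T cells, 3.69-fold (1.22 to 18.3), and in NK cells, 5.98-fold (1.04 to 240), on 3 and 1 UMIs. Within populations 1, 4 and 7 the ratio of Ccnd1 in CD8 T cells was 0.478 to 0.943.

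Inhibitors and quiescence genes were mixed too, with lower genes in CD8 T, Foxp3-positive T and germinal centre B cells. In positive CD8 T cells 3 of 15 measured were higher and 3 lower, in Foxp3-positive T cells 2 higher and 6 lower of 14, in germinal centre B cells 2 higher and 4 lower of 13, and in macrophages 5 higher and 0 lower of 17. Klf2, a transcription factor of resting lymphocytes, was 3.99-fold (3.66 to 4.35) lower in CD8 T cells and 3.83-fold (3.20 to 4.602) lower in germinal centre B cells, and stood at 328 against 327 CPM in macrophages. The antiproliferative gene Btg1 was 2.00-fold lower in CD8 T cells, 4.06-fold in Foxp3-positive T cells and 3.34-fold in germinal centre B cells, and had a ratio of 0.696 in macrophages, short of the limit. The 2 inhibitors that were higher in all 5 classes were Cdkn2c, the INK4 protein p18, by 4.44-, 4.40-, 5.57-, 5.43- and 4.59-fold in CD8 T, Foxp3-positive T, NK, macrophage and germinal centre B cells, and Rbl1, the pocket protein p107, by 2.66-, 3.44-, 3.92-, 3.17- and 3.93-fold. Cdkn1a, the p53 target p21, went both ways: 2.34-fold (1.91 to 2.86) higher in positive CD8 T cells and 2.54-fold (1.66 to 4.00) lower in positive Foxp3-positive T cells. Within populations 1, 4 and 7 the CD8 T cell ratio of Cdkn1a was 1.28 to 3.40. Within populations 1, 4 and 7 the ratio in CD8 T cells was between 0.4003 and 1.11 for Klf2, so Klf2 was not lower in each of them, and between 0.469 and 0.599 for Btg1.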

How the data were processed

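The deposited matrix held raw UMI counts of 27998 genes, 9 hashtag antibodies (Antibody Capture rows) and 9 Multiplexing Capture rows in 21624 barcodes. It was made with Cell Ranger 8.0.1 per the file headers and the submitters' processing notes. The antibody rows held 35305304 UMIs and the Multiplexing Capture rows 37370056. Populations were set by the antibody rows alone, and whether the other rows give the same assignment was not tested. The genome was mm10-1.2.0, as the series' design text states. On intronic reads the sources used here are silent. The filters of that text (at least 500 UMIs, at least 200 genes, at most 20% mitochondrial UMIs) removed 93 barcodes. Scrublet in scanpy 1.11.5, at an expected rate of 8%, called 184 doublets (0.855%), which were removed, and 6 of them were cell cycle-positive. A hashtag was assigned where its count was at least 3 times the next, and 258 cells had none. Per-sample columns of no mapped sample numbered 0.

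Cells were gated on UMIs. CD8 T cells had at least 2 of Cd3d, Cd3e or Cd3g, at least 2 of Cd8a or Cd8b1 and 0 of Cd4 and Foxp3. Foxp3-positive T cells had at least 1 Foxp3 UMI and at most 1 of Cd8a or Cd8b1, NK cells at least 2 UMIs of NK genes, macrophages at least 10 UMIs of C1q genes, and germinal centre B cells at least 3 UMIs of B lineage genes and at least 2 different germinal centre genes. Each class allowed at most 2 UMIs of each other lineage. Close to the lower limit means exactly at it, and under 20 C1q UMIs for macrophages. Cells were thinned to 1500 UMIs with a fixed seed of 11, which left out 1232 shallower cells. CPM was summed over the cells of a class. Intervals are exact Poisson for CPM, Clopper-Pearson for shares and conditional binomial for ratios. UMIs of 1 cell are not independent, so they cover counting error only. A gene with at least 50 UMIs over both classes was called at 2-fold with an interval on 1 side of 1, and this call is no replicate test. The calling code was run on simulated independent Poisson counts of whole classes. These held no single cells or populations, so that run cannot show how the calls behave where UMIs of 1 cell are not independent. Software was Python 3.11.15, numpy 2.4.6, scipy 1.17.1 and pandas 2.3.3.

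The members and lists were chosen with earlier results of these data known. Named in full were the 3 S and 3 G2/M members with the highest level, Mki67, Top2a, Pcna, Stmn1 and Hmgb2, up to 5 members per comparison with the largest ratio, and up to 4 genes of each further list. Other genes given by name, such as those of the CD8 T cell and macrophage comparison, Pttg1 and Ccnd1, were chosen after their values were seen.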

Additional observations from a re-analysis of the deposited data

Results flagged for a closer look

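Cells that entered no comparison also held cell cycle-positive cells. Over all used cells with at least 1500 UMIs 6.64% were positive (1319 of 19862). Among cells without an assigned hashtag 24 of 209 with at least 1500 UMIs were positive (11.5%, interval 7.498 to 16.6%). This was above the share of all used cells and the 2.05% of naive CD4 T cells, and Mki67 stood at 42.9 CPM. Of these 24 cells, 9 passed by S genes only, 10 by G2/M genes only and 5 by both. Among cells outside every gate 334 of 5826 were positive (5.73%, 5.15 to 6.36%), slightly below the share of all used cells, with Mki67 at 50.8 CPM. By population the share outside the gates ran from 2.59% in population 9 to 16.4% in population 7. The 5 gated classes held 805 of all 1319 positive cells (61.03%).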

How the results depend on the processing

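The share of cell cycle-positive cells depends on the call. Thinned to 1000 UMIs it was 4.12% in CD8 T cells and 10.5% in macrophages, and thinned to 3000 UMIs 16.4% in CD8 T, 29.04% in Foxp3-positive T, 18.6% in NK, 24.7% in macrophage and 64.7% in germinal centre B cells. In that order of classes it was 35.8, 40.7, 42.1, 62.9 and 74% without thinning, 21.6, 36.1, 26.4, 26.1 and 65.3% with 2 genes needed, and 2.62, 12.7, 1.62, 7.14 and 38.3% with 5. Without Hmgb2, Cks1b, Cks2, Dut and Pcna it was 3.87% in CD8 T cells, 2.64% in NK cells and 11.6% in macrophages, and the G2/M to S ratio was 1.09, 1.57, 0.829, 1.07 and 1.28. Leaving out each population in turn gave shares of 5.28 to 7.13% in CD8 T cells and 11.1 to 16.03% in macrophages, and ratios of 1.39 to 1.58, 1.96 to 2.28, 1.13 to 1.36, 1.26 to 1.94 and 1.68 to 1.84. The macrophage ratio was 1.94 without population 7.

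The count of members higher with a Pdcd1 UMI was 11 at a limit of 1.5-fold, 0 at 3-fold, 7 by the median over hashtags and 4 to 7 with each population left out. No member was lower in any comparison under the alternatives run, and the counts for germinal centre B cells, Foxp3-positive T cells and macrophages stayed within 1.5 times. The cause of these shifts was not tested. No paired analysis was possible because the populations are assigned to no group, so no test treats them as replicates, and class ratios were read within each population. Gates that need UMIs take deeper cells more often, free RNA may add a background to each level, and 5′ UMIs carry no length term.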
